A study of Mus musculus with 9 samples.

Results

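The plasminogen activator system of C2C12 myotubes was examined through 5 genes, the activators Plau and Plat, the receptor Plaur and the serpins Serpine2 and Serpinf1. They were taken from a list of names, matched to the Ensembl identifiers of the count table through GENCODE M21, and are 5 of 52780 genes in the table. All 5 were among the 19545 genes that passed the filter on low counts. C2C12 is an immortal mouse myoblast line that fuses into myotubes when serum is withdrawn, so all samples share the background of this cell line. Poly(A) mRNA was sequenced on day 4 of differentiation in 9 samples, 3 for each of 3 conditions named after their siRNA, si mH2A1.1, si mH2A1.2 and si Ctrl. All cells received siRNA at 10 nM, before and during differentiation, directed against the splice isoform macroH2A1.1, against macroH2A1.2, or, in si Ctrl, against neither. The labels call the last group Wild Type. Which siRNA sequence was used for each isoform in these samples is not given in the sources used here. The study calls the 3 samples of a condition independent biological replicates.

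Urokinase, encoded by Plau, and tissue plasminogen activator, encoded by Plat, are secreted serine proteases that cut plasminogen to the active protease plasmin, which degrades fibrin and other proteins around the cell and activates growth factors and other proteases. Plaur encodes the urokinase receptor, which is held in the membrane by a lipid anchor and keeps urokinase at the cell surface. Serpine2, or protease nexin-1, is a serpin that inactivates urokinase, tissue plasminogen activator and thrombin by forming a covalent complex with them. Serpinf1 encodes pigment epithelium-derived factor, a secreted protein with the fold of a serpin that does not inhibit proteases, so that it is no inhibitor of the activators in spite of its family. In muscle, urokinase is known for its part in myoblast migration and fusion and in the repair of injured fibres.

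In GENCODE M21, on GRCm38, Plau (ENSMUSG00000021822) lies on the plus strand of chromosome 14 from 20836660 to 20843385 and Plat (ENSMUSG00000031538) on the plus strand of chromosome 8 from 22757727 to 22782844. Plaur (ENSMUSG00000046223) is on the plus strand of chromosome 7 from 24462484 to 24475968. Both serpin genes are on minus strands, Serpine2 (ENSMUSG00000026249) at 79794197 to 79861180 of chromosome 1 and Serpinf1 (ENSMUSG00000000753) at 75409769 to 75422701 of chromosome 11. Each gene thus lies on a chromosome of its own, and the exons of each share 0 bases with exons of other annotated genes on either strand.

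RefSeq promoter windows on GRCm38.p6 matched 3 of the 5 members, Plaur, Serpine2 and Serpinf1, and not Plau or Plat. The stretches before the start site that no annotated exon of the gene covers are printed because these members differ in their response to the knockdowns, with Plaur higher and Serpinf1 lower in si mH2A1.1 than in si mH2A1.2 and Serpine2 near its control level in both. They read 5′ to 3′ on the strand of the gene, at chr7:24462233-24462482 for Plaur, chr1:79858697-79858915 for Serpine2 and chr11:75422702-75422873 for Serpinf1. Capitals mark matches to an AP-1 motif (TGANTCA), a GC box (GGGCGG) or a CCAAT box (CCAAT) on either strand.
Plaur: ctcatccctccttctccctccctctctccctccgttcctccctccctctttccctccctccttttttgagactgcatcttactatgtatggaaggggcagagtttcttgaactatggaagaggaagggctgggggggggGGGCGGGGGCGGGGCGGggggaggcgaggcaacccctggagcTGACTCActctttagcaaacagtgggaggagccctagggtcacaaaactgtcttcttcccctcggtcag
Serpine2: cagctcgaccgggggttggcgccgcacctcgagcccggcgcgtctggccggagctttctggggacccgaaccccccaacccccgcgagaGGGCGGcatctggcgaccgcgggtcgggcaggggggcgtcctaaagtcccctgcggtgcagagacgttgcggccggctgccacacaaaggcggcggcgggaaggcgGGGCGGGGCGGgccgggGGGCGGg
Serpinf1: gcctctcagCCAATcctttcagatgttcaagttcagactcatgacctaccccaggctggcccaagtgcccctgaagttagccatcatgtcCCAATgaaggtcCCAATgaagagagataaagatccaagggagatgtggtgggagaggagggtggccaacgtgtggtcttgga
The 250 bases of Plaur hold 1 AP-1 match, starting at position -69 from the start site, and 3 GC boxes, of which the second and the third overlap. An AP-1 match is found in 6.75% and a GC box in 32.7% of all 32841 RefSeq windows of this length. The 219 bases of Serpine2 end 31 bases before the RefSeq start, lie within the longer GENCODE span of the gene, have a GC content of 77.6% and hold 4 GC boxes and 0 AP-1 matches, where 28.4% of windows of this length hold a GC box. For comparison, the median GC content of all windows is 52.4%, and that of the stretches of Plaur and Serpinf1 is 59.6% and 52.9%. The 172 bases of Serpinf1 end 78 bases before the RefSeq start, where the GENCODE span of the gene begins. They hold 3 CCAAT boxes, where 23.6% of windows of this length hold at least 1, with 0 GC boxes and 0 AP-1 matches. A TATA box (TATAAA) was found in 0 of the 3 stretches, beside 12.4%, 9.92% and 8.13% of windows as long as those of Plaur, Serpine2 and Serpinf1. E-boxes (CANNTG), searched for but not marked, numbered 0, 1 and 2 in Plaur, Serpine2 and Serpinf1. At least 1 is found in 66.2%, 62.0% and 54.0% of windows of these lengths. For Serpine2 and Serpinf1 the bases nearest the RefSeq start were not searched. These matches describe the letters alone.

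The libraries held between 36924252 and 42223108 estimated counts. H2afy (ENSMUSG00000015937), which encodes both macroH2A1 isoforms, was counted as a whole gene, so that neither isoform can be read on its own. It ranged from 56.3 to 62.4 CPM (counts scaled to the size of the library) in si Ctrl, from 30.0 to 38.8 CPM in si mH2A1.1 and from 43.2 to 47.2 CPM in si mH2A1.2. It fell in si mH2A1.1 against si Ctrl (edgeR adjusted p = 0.00331), and for si mH2A1.2 against si Ctrl the log2 fold change was -0.39 (edgeR adjusted p = 0.108, DESeq2 adjusted p = 0.0391). As markers of the labelled cell type, 9 of 9 myotube genes such as Myh3 and Ckm were measured in every condition, with a summed level of 15999 to 27636 CPM over all samples. Summed markers of macrophages did not exceed 11.6 CPM, those of endothelial cells 2.99 CPM and those of adipocytes 1.57 CPM, and the macrophage marker Adgre1 was at most 0.0269 CPM. Since these are bulk samples, fewer cells of a type and less RNA per cell cannot be told apart.

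To place the members against each other, levels were divided by the length of the longest coding transcript in kilobases (RPKM). In si Ctrl, Serpinf1 had the highest level, 143 ± 19.9 RPKM (SD, n = 3), which ranks 465 of 19541 genes, followed by Plau with 103 ± 19.9 RPKM, at rank 648. The other activator, Plat, reached 21.7 ± 3.29 RPKM, the receptor Plaur 12.6 ± 3.22 RPKM and the inhibitor Serpine2 6.19 ± 1.47 RPKM. The si Ctrl samples of neighbours in this order did not overlap, down to Plaur with 9.21 to 15.6 RPKM and Serpine2 with 4.49 to 7.09 RPKM. Scaling to all annotated exons, a choice made after the data were seen, kept the order of the means but brought 2 pairs of neighbours within their spread, Serpinf1 and Plau at 111 ± 15.4 and 102 ± 19.7 RPKM, and Plat and Plaur at 8.78 ± 1.33 and 7.26 ± 1.85 RPKM, with overlapping samples in each pair.

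The order of the mean levels in si mH2A1.2 was that in si Ctrl. In si mH2A1.1, Plau stood first with 139 ± 13.5 RPKM and Serpinf1 next with 107 ± 44.7 RPKM, with overlapping samples. In si mH2A1.2, Serpinf1 reached 231 ± 41.9 RPKM against 78.8 ± 21.4 RPKM for Plau, and their samples did not overlap. At the lower end, the samples of Plaur (8.84 ± 1.74 RPKM) and of Serpine2 (6.45 ± 1.08 RPKM) overlapped in si mH2A1.2.

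**Figure D1:**
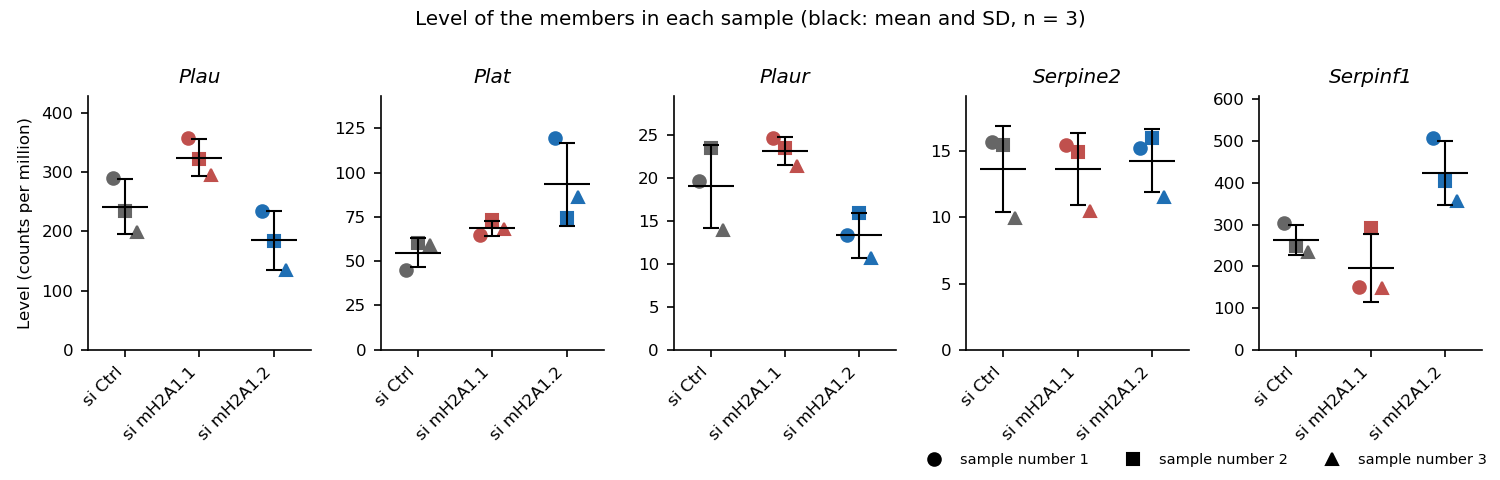
Level of each member in CPM (vertical axes, each from 0) in the 3 samples of each condition, with the sample number as the symbol and the mean and SD in black. The si mH2A1.1 samples of Plau lie at 295 to 358 CPM, above all other samples of this gene, the si mH2A1.2 samples of Serpinf1 lie at 357 to 508 CPM, above all others, and Serpine2 lies between 9.93 and 16.0 CPM throughout.

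The urokinase gene Plau was higher in si mH2A1.1 than in si mH2A1.2. It was measured at 291, 235 and 198 CPM in si Ctrl samples 1, 2 and 3, at 358, 322 and 295 CPM in si mH2A1.1 and at 235, 184 and 135 CPM in si mH2A1.2. All si mH2A1.1 samples were above all others, while the si mH2A1.2 samples overlapped with si Ctrl. Plau was 1.76-fold higher in si mH2A1.1 than in si mH2A1.2 (log2 fold change 0.81, SE 0.20, 95% interval 0.37 to 1.26, edgeR adjusted p = 0.0168, DESeq2 adjusted p = 0.000904). Against si Ctrl, neither knockdown passed the edgeR test, with a log2 fold change of 0.43 (interval -0.01 to 0.87, adjusted p = 0.179) in si mH2A1.1 and of -0.39 (interval -0.83 to 0.05, adjusted p = 0.387) in si mH2A1.2. These fits have no replicate term, and with the replicate number as a block Plau passed in si mH2A1.1 against si Ctrl (log2 fold change 0.45, edgeR adjusted p = 0.0212). The control lay between the knockdowns, and the call between them was lost without si mH2A1.1 replicate 1 (edgeR adjusted p = 0.0674) or without si mH2A1.2 replicate 2 (edgeR adjusted p = 0.0635).

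The receptor Plaur had the same order of the conditions as its ligand. Its level was 19.6, 23.5 and 13.9 CPM in si Ctrl, 24.6, 23.4 and 21.4 CPM in si mH2A1.1 and 13.3, 15.9 and 10.7 CPM in si mH2A1.2. The si Ctrl samples overlapped with both knockdowns, whereas the knockdowns did not overlap with each other. Between them Plaur was 1.74-fold higher in si mH2A1.1 (log2 fold change 0.80, SE 0.20, 95% interval 0.36 to 1.23, edgeR adjusted p = 0.0173, DESeq2 adjusted p = 0.00165). Against si Ctrl the log2 fold changes of 0.29 in si mH2A1.1 (edgeR adjusted p = 0.360) and -0.51 in si mH2A1.2 (edgeR adjusted p = 0.233) did not pass. As for Plau, leaving out a library ended the call between the knockdowns, here si mH2A1.1 replicate 1 (edgeR adjusted p = 0.0632) or si mH2A1.2 replicate 3 (edgeR adjusted p = 0.0609).

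Plat, the other activator, rose in si mH2A1.2 against si Ctrl, and its difference in si mH2A1.1 did not pass the test. The si Ctrl samples held 45.2, 60.2 and 59.0 CPM, the si mH2A1.1 samples 64.5, 73.1 and 68.0 CPM and the si mH2A1.2 samples 120, 74.5 and 86.1 CPM. None of the 3 conditions overlapped with another, with si Ctrl lowest and si mH2A1.2 highest. Against si Ctrl, Plat was 1.70-fold higher in si mH2A1.2 (log2 fold change 0.77, SE 0.17, 95% interval 0.39 to 1.15, edgeR adjusted p = 0.0483, DESeq2 adjusted p = 0.00183). For si mH2A1.1 the log2 fold change was 0.32 (interval -0.06 to 0.70, edgeR adjusted p = 0.234), and between the knockdowns it was -0.45 (interval -0.82 to -0.07, edgeR adjusted p = 0.0849). The call in si mH2A1.2 lay close to the threshold and was kept in 0 of 9 fits that each left out 1 sample (edgeR adjusted p from 0.0543 to 0.168, log2 fold change 0.55 to 0.91). It was also lost with only the samples of this contrast in the fit (edgeR adjusted p = 0.0819) and with the replicate number as a block (edgeR adjusted p = 0.0556).

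Expressed as a ratio within each sample, the RPKM of Plau was 6.92, 4.20 and 3.62 times that of Plat in si Ctrl and 5.97, 4.74 and 4.67 times in si mH2A1.1. In si mH2A1.2 the ratio was 2.12, 2.66 and 1.69, below every other sample. The mean ratio was 4.92 ± 1.76 (SD, n = 3) in si Ctrl, 5.13 ± 0.732 in si mH2A1.1 and 2.16 ± 0.487 in si mH2A1.2. This ratio was chosen after its values were seen and was not tested. Plau was the more abundant activator mRNA in 9 of 9 samples.

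**Figure D2:**
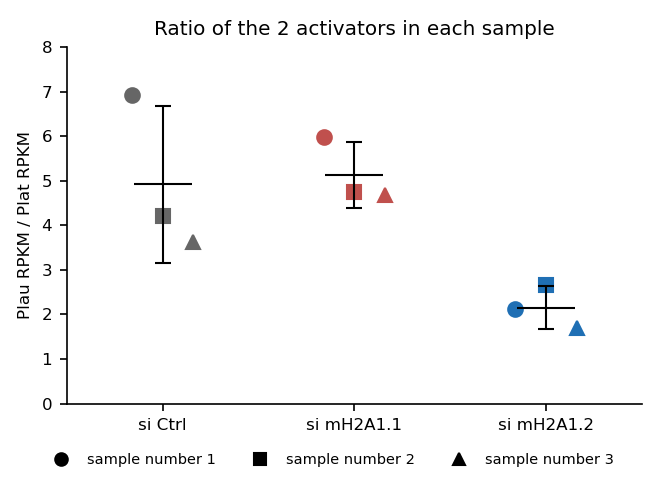
Ratio of the RPKM of Plau to that of Plat (vertical axis, no unit) in each sample of the 3 conditions, with the sample number as the symbol and the mean and SD in black. The si mH2A1.2 samples lie at 1.69 to 2.66, below the si Ctrl samples at 3.62 to 6.92 and the si mH2A1.1 samples at 4.67 to 5.97.

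Among the serpins, Serpinf1 differed between the knockdowns in the direction opposite to Plau and Plaur. Its samples held 303, 249 and 234 CPM in si Ctrl, 150, 291 and 148 CPM in si mH2A1.1 and 508, 405 and 357 CPM in si mH2A1.2. All si mH2A1.2 samples were above all others, and of the si mH2A1.1 samples the second lay within the range of si Ctrl while the other two lay below it. The level was 2.15-fold lower in si mH2A1.1 than in si mH2A1.2 (log2 fold change -1.11, SE 0.25, 95% interval -1.67 to -0.55, edgeR adjusted p = 0.0128, DESeq2 adjusted p = 0.00021). This was the largest difference among the 5 members in the 3 contrasts. It was lost without si mH2A1.1 replicate 1 (edgeR adjusted p = 0.0553) or replicate 3 (edgeR adjusted p = 0.0501).

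Against si Ctrl, Serpinf1 did not pass in either knockdown. The log2 fold change was 0.69 in si mH2A1.2 (95% interval 0.13 to 1.25, edgeR adjusted p = 0.206, DESeq2 adjusted p = 0.0867) and -0.42 in si mH2A1.1 (95% interval -0.97 to 0.14, edgeR adjusted p = 0.296). The latter value turned on si mH2A1.1 replicate 2, without which the log2 fold change was -0.82 and passed (edgeR adjusted p = 0.0163).

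Serpine2, the inhibitor of both activators, was nearly level across the conditions. It was measured at 15.7, 15.4 and 9.93 CPM in si Ctrl, at 15.5, 15.0 and 10.5 CPM in si mH2A1.1 and at 15.3, 16.0 and 11.5 CPM in si mH2A1.2. All conditions overlapped, with sample 3 the lowest in each. The 95% interval of the log2 fold change was -0.48 to 0.47 for si mH2A1.1 and -0.41 to 0.54 for si mH2A1.2 against si Ctrl, and -0.54 to 0.41 between the knockdowns (edgeR adjusted p = 0.995, 0.923 and 0.864). Changes of up to about these sizes in either direction were therefore not excluded by this fit, which has no replicate term and an SE of 0.21 in each contrast. With the replicate number as a block, the log2 fold changes were 0.0057, 0.076 and -0.070, with an SE of 0.095 to 0.096. Neither fit shows that the levels were equal.

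Over the 5 members, 0 passed in si mH2A1.1 against si Ctrl, where 11.1% of all genes tested were called, 6.18% higher and 4.93% lower. With DESeq2 0 passed, beside 16.7% of all genes, and at an unadjusted p under 0.05 also 0, beside 29.6%. The ranges of 2 members, Plau and Plat, did not overlap in this contrast, beside 34.2% of all genes.

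In si mH2A1.2 against si Ctrl, 1 member, Plat, was called as higher, where 2.35% of all genes were called, 1.37% higher and 0.982% lower. With DESeq2 Plat was again the 1 member called, beside 6.24% of all genes. At an unadjusted p under 0.05 there were 3 members, Plat, Plaur and Serpinf1, beside 15.9%, and 2 members, Plat and Serpinf1, had ranges that did not overlap, beside 22.5%.

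Between the knockdowns 3 of 5 members were called, where 22.5% of all genes were, with 2 of them, Plau and Plaur, higher in si mH2A1.1 (12% of all genes) and 1, Serpinf1, lower (10.5%). DESeq2 called the same 3 members, beside 23.4% of all genes. An unadjusted p under 0.05 was reached by 4 members, beside 36.2%, and the ranges of 4 did not overlap, beside 39.7%, the exception being Serpine2 in both counts. Without si mH2A1.1 replicate 1, 0 members were called between the knockdowns.

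The median log2 fold change of the members was 0.29, 0.06 and -0.06 in these contrasts, and that of all genes tested was -0.01, -8.35e-05 and -0.01. Each pair of contrasts shares the samples of a condition, so the contrasts are not independent. Stricter cutoffs from a figure legend of the study were an adjusted p under 0.01 and 0.8 as the smallest absolute log2 fold change. Applied to the edgeR values, they called 0 members. The shares of all genes were 1.8% in si mH2A1.1 and 0.179% in si mH2A1.2 against si Ctrl and 6.38% between the knockdowns. The study itself tested with DESeq2. Between the knockdowns, the DESeq2 values of Plau (log2 fold change 0.82, DESeq2 adjusted p = 0.000904), Plaur (0.80, DESeq2 adjusted p = 0.00165) and Serpinf1 (-1.10, DESeq2 adjusted p = 0.00021) meet both cutoffs. Of these, Plaur lay just above the second cutoff, at 0.802. The share of all genes that meet both with DESeq2 was not counted, so these values stand without a background. The study's figure applied the cutoffs to contrasts against control. There, Plat in si mH2A1.2 was the only member called with DESeq2 (adjusted p = 0.00183), and its log2 fold change of 0.76 was below 0.8.

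**Figure D3:**
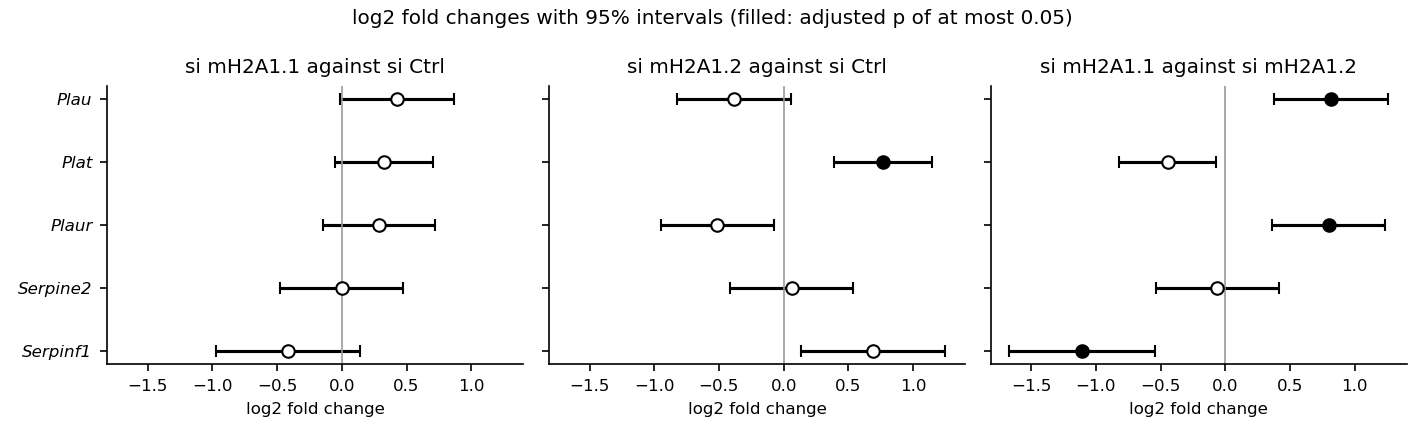
log2 fold change of each member (horizontal axes) with its 95% interval in the 3 contrasts, from edgeR, with filled points for an adjusted p of at most 0.05. Filled points are Plat at 0.77 in si mH2A1.2 against si Ctrl, and Plau at 0.81, Plaur at 0.80 and Serpinf1 at -1.11 between the knockdowns.

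Some marker lists differed between the knockdowns together with these members. The 5 markers of proliferating cells all passed as higher in si mH2A1.1 than in si mH2A1.2, with a summed level of 264 to 420 CPM in si Ctrl, 369 to 765 CPM in si mH2A1.1 and 213 to 305 CPM in si mH2A1.2, the same order of conditions as for Plau and Plaur. Of 5 tested fibroblast and mesenchymal markers 3 were lower in si mH2A1.1, and the summed level of the list, nearly all of it Col1a1, was 2144 to 3429 CPM in si Ctrl, 284 to 867 CPM in si mH2A1.1 and 6486 to 9442 CPM in si mH2A1.2, the order of Serpinf1. The 7 interferon-induced markers were all higher in si mH2A1.1 than in the other conditions, with a summed level of 113 to 376 CPM against 31.5 to 37.9 CPM in si Ctrl and 27.8 to 43.8 CPM in si mH2A1.2. Of 9 myotube markers, 3 were higher and 1 lower in si mH2A1.1 than in si mH2A1.2. All 3 satellite cell markers passed between the knockdowns, Pax7 and Myf5 higher and Cd34 lower in si mH2A1.1. The 1 tested macrophage marker, Cd68, was higher in si mH2A1.1, with 2.98 ± 0.565 CPM in si Ctrl and 9.14 ± 2.97 CPM in si mH2A1.1 (log2 fold change 1.62 against si Ctrl, edgeR adjusted p = 0.00565, and 1.60 against si mH2A1.2, edgeR adjusted p = 0.00231). The part of these in the values of the members was not tested.

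The genes most like each member in pattern were found by Pearson's r of log2 CPM over the 9 samples, among 14378 genes with at least 1 CPM on average. These values describe samples that share the 3 conditions and carry no test. For Plau the closest genes were Pax7 (r = 0.990), the satellite cell transcription factor, Dusp22 (r = 0.987) and Pnmal2 (r = 0.983). Pax7 averaged 3.00 CPM in si Ctrl, 4.69 CPM in si mH2A1.1 and 1.88 CPM in si mH2A1.2. For Plaur they were Hsp25-ps1 (r = 0.983), a pseudogene that may share reads with its parent gene, Rhou (r = 0.978) and Slc37a3 (r = 0.978). Plat was closest to Slc25a45 (r = 0.938), Tmem184a (r = 0.925) and Arhgef40 (r = 0.918), and Serpine2 to Arhgef15 (r = 0.907), Pdia4 (r = 0.903) and Edem1 (r = 0.881). Serpinf1 was closest to 2310009A05Rik (r = 0.983), Nr2c1 (r = 0.978) and Tm9sf2 (r = 0.977). Among the members themselves, Plau and Plaur had an r of 0.859, Plau and Plat of -0.33 and Plaur and Serpinf1 of -0.63.

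The wider plasminogen system was followed through 82 further genes, of which 61 passed the filter on low counts and 21 did not. In si mH2A1.1 against si Ctrl, 15 of the 61 passed, 8 higher and 7 lower (24.6%, median log2 fold change 0.01). In si mH2A1.2 against si Ctrl, 9 passed, all higher (14.8%, median 0.17), and between the knockdowns 26 passed, 8 higher and 18 lower in si mH2A1.1 (42.6%, median -0.12). These shares stand beside 11.1%, 2.35% and 22.5% of all genes tested. The lists were chosen with earlier results of these data known, so the comparison is only a description, and the difference in shares was not tested. The first count fell to between 5 and 9 when any 1 of the si Ctrl replicates or si mH2A1.1 replicate 1 or 3 was left out. The second fell to between 1 and 5 when any 1 of the si Ctrl or si mH2A1.2 replicates or si mH2A1.1 replicate 3 was left out.

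The substrate of the activators was hardly measured in these cells. Plg, which encodes plasminogen and is mainly made in the liver, held at most 3 counts in any sample (0.0806 CPM at most) and was not tested. Its surface receptor pair, Anxa2 and S100a10, was abundant, at 666 ± 99.8 and 220.3 ± 40.0 CPM in si Ctrl (SD, n = 3). Neither passed in any contrast, with log2 fold changes between the knockdowns of -0.12 for Anxa2 (edgeR adjusted p = 0.560) and 0.31 for S100a10 (edgeR adjusted p = 0.149). Of the 8 tested genes for plasminogen receptors and plasmin inhibitors, 2 passed between the knockdowns, 1 in each direction. This is 25%, near the 22.5% of all genes tested.

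Of the 13 tested activator inhibitors and other serpins, 4 passed between the knockdowns (30.8%, beside 22.5% of all genes tested), 3 higher and 1 lower in si mH2A1.1. Among them was Serpinb1a, an inhibitor of neutrophil proteases (log2 fold change 0.70, edgeR adjusted p = 0.00145).

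Genes for clearance receptors and co-receptors held 11 of the 26 calls of the wider list between the knockdowns, more than any other of its 5 groups. Of the 17 tested, 11 passed (64.7%, beside 22.5% of all genes tested), and all 11 were lower in si mH2A1.1 than in si mH2A1.2. The median log2 fold change was -0.88 over the 17. Lrp1, the endocytic receptor that takes up protease and serpin complexes, was measured at 1431 ± 122 CPM in si Ctrl, 1113 ± 307 CPM in si mH2A1.1 and 2439 ± 131 CPM in si mH2A1.2 (SD, n = 3). It was lower in si mH2A1.1 than in si mH2A1.2 by a log2 fold change of -1.13 (edgeR adjusted p = 0.00328). Mrc2, a collagen receptor that associates with the urokinase receptor, stood at 202 ± 53.8, 172 ± 23.0 and 374 ± 34.2 CPM in the same order, with a log2 fold change of -1.13 between the knockdowns (edgeR adjusted p = 0.00288) and of 0.89 in si mH2A1.2 against si Ctrl (edgeR adjusted p = 0.0381).

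The integrin subunits Itgav and Itga3, whose dimers bind vitronectin or laminin at the cell surface, had log2 fold changes of -0.93 (edgeR adjusted p = 0.00207) and -1.20 (edgeR adjusted p = 0.00213) between the knockdowns. Pdgfrb, the receptor for platelet-derived growth factor, stood at 141 ± 53.7 CPM in si Ctrl, 56.8 ± 9.45 CPM in si mH2A1.1 and 357 ± 28.6 CPM in si mH2A1.2. It fell in si mH2A1.1 (log2 fold change -1.31, edgeR adjusted p = 0.0131) and rose in si mH2A1.2 (log2 fold change 1.34, edgeR adjusted p = 0.0280) against the same si Ctrl samples. Pdgfc, which encodes a growth factor that tissue plasminogen activator can activate, was lower in si mH2A1.1 than in si mH2A1.2 (log2 fold change -0.88, edgeR adjusted p = 0.00180), as was the receptor Egfr (log2 fold change -1.57, edgeR adjusted p = 0.000659). Vldlr, an endocytic receptor for urokinase complexes, had a log2 fold change of -2.51 (edgeR adjusted p = 0.0155), which was lost without si mH2A1.1 replicate 1 or 3 (edgeR adjusted p from 0.0525 to 0.0614). Between the knockdowns, the calls of Lrp1, Mrc2, Itgav, Itga3, Pdgfrb, Pdgfc and Egfr held in all 9 fits that each left out 1 sample. Against si Ctrl, each call named here was lost in some of these fits, in 7 of 9 for Mrc2 and in 4 and 2 of 9 for Pdgfrb in si mH2A1.2 and si mH2A1.1. The summed fibroblast and mesenchymal markers, nearly all of them Col1a1, had the same order of conditions as these genes. Of the other markers on that list, Dpt shared this order. Lum was highest in si Ctrl (16.0 CPM), Pdgfra was lowest in si Ctrl (12.6 CPM), and Thy1 was at 0.511 CPM in si Ctrl and 0.509 CPM in si mH2A1.2. The part of these markers was not tested.

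Of the 14 tested genes of thrombin and fibrin, 8 passed between the knockdowns (57.1%, beside 22.5% of all genes tested), 4 in each direction. F3, the tissue factor that starts coagulation, stood at 19.2 ± 8.98 CPM in si Ctrl, 4.80 ± 1.27 CPM in si mH2A1.1 and 22.9 ± 9.01 CPM in si mH2A1.2 (SD, n = 3). It was lower in si mH2A1.1 than in si mH2A1.2 by a log2 fold change of -2.26 (edgeR adjusted p = 0.00395). The protease-activated receptor gene F2rl1 moved the other way, from 0.795 ± 0.251 CPM in si Ctrl to 3.14 ± 1.04 CPM in si mH2A1.1 (log2 fold change 1.98, edgeR adjusted p = 0.00600). Tgm2, a transglutaminase that crosslinks matrix proteins, rose from 155 ± 11.2 to 342 ± 51.1 CPM (log2 fold change 1.14, edgeR adjusted p = 0.00368), and its level in si mH2A1.2 was 163 ± 30.8 CPM. The interferon-induced markers were higher in the same samples, and their part was not tested. Outside this list, Tnfrsf11b was among the genes for plasminogen receptors and plasmin inhibitors called between the knockdowns. Tnfrsf11b, which encodes the decoy receptor osteoprotegerin, was low at 1.11 ± 0.319 CPM in si Ctrl and 0.402 ± 0.173 CPM in si mH2A1.1, against 2.95 ± 0.376 CPM in si mH2A1.2 (log2 fold change between the knockdowns -2.87, edgeR adjusted p = 0.000568). Of the 9 other tested proteases and growth factors of the system, 1 passed between the knockdowns (11.1%, beside 22.5% of all genes tested), lower in si mH2A1.1.

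**Figure D4:**
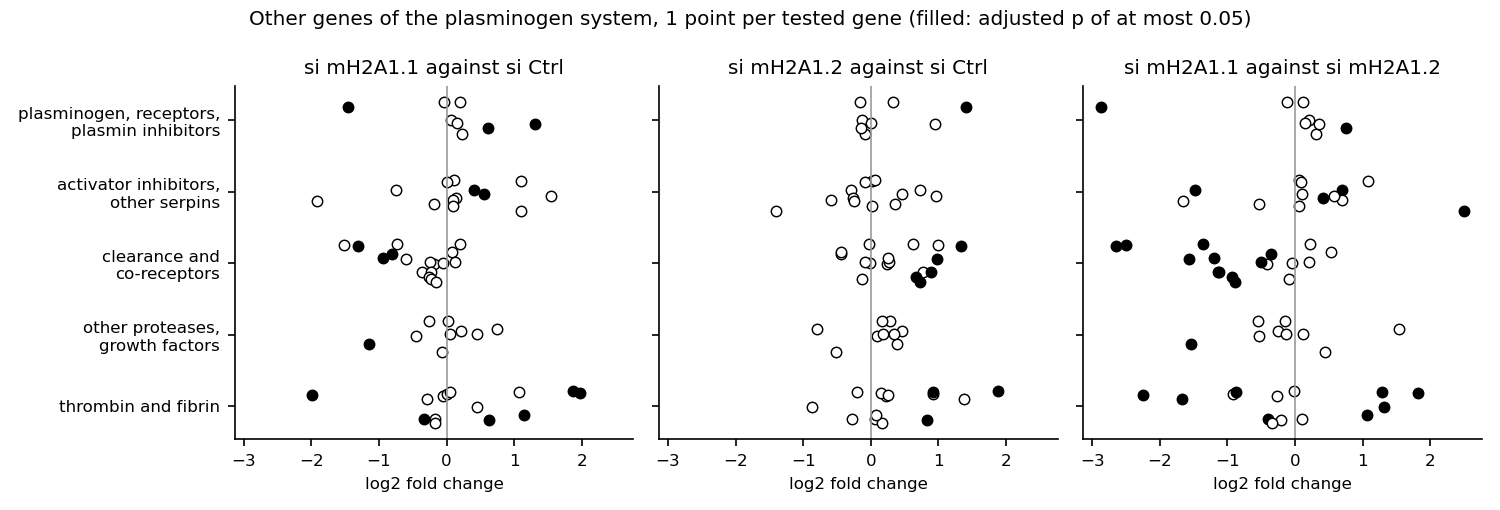
log2 fold change (horizontal axes) of the 61 tested genes of the wider plasminogen system in the 3 contrasts, 1 point for each gene and 1 line for each list, with filled points for an edgeR adjusted p of at most 0.05. In the right panel, the 11 filled points among the clearance receptors and co-receptors all lie below 0, that is, lower in si mH2A1.1 than in si mH2A1.2.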

How the data were processed

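mRNA of 9 samples was sequenced by the authors as 50 bp reads and assigned to genes with Salmon on mm10, as the submitters' processing notes and the study's methods state. The annotation release is not given in the sources used here. The deposited table used here holds expected counts per gene, deposited by the authors as whole numbers and not normalized. A second table from the authors holds a normalized signal, the counts over 1 factor for each sample, and served only to check that ratio. Names, positions and transcript lengths came from GENCODE M21, which holds 52762 of the 52780 genes.

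The labels gave each sample's condition and replicate number. Differential expression was tested with edgeR 4.0.16 (R 4.3.3) by the legacy quasi-likelihood test on all 19545 genes left by filterByExpr, with TMM normalization and Benjamini-Hochberg adjustment, with the 9 samples in 1 model without a replicate term. Genes passed at an adjusted p of at most 0.05, the threshold in the study's methods. P-values set a difference between conditions against the spread between these samples, as estimated by the model. An exact permutation test of 3 against 3 samples could not go below 0.1. CPM were computed on TMM-scaled library sizes. RPKM divided them by the length of the longest coding transcript. Intervals are 95% intervals from the standard error of the fit. Promoter windows are from RefSeq. The alternatives were DESeq2 1.42.0, the newer quasi-likelihood form, DESeq2 size factors, the replicate block, a filter of 10 counts or more in every sample, no filter, only the samples of the contrast, the stricter cutoffs and leaving out each sample.

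The members and lists were chosen with earlier results of these data known. Named were the 5 members, Plg, Lrp1, Anxa2, S100a10, Mrc2 and Vldlr, and of the wider list the 12 genes with the smallest adjusted p in any contrast, an adjusted p of at most 0.05 and a mean of at least 1 CPM. A further gene that the rule names is not reported here. For each member the 3 genes most alike over the samples were also named. Tables and plots were made in Python 3.11.15 (matplotlib 3.10.9, scipy 1.17.1, numpy 2.4.6, pandas 2.3.3).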

Additional observations from a re-analysis of the deposited data

How the results depend on the processing

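Of 255 alternative values of the 15 log2 fold changes of members, 224 kept their direction and their side of the threshold, 21 kept the direction and no longer passed, 2 newly passed and 8 changed sign. All sign changes were of Serpine2, whose log2 fold changes with 1 sample left out ranged from -0.20 to 0.16 (si mH2A1.1 against si Ctrl), -0.13 to 0.19 (si mH2A1.2 against si Ctrl) and -0.20 to 0.095 (between the knockdowns). With 1 sample left out, Plau (0.63 to 1.02), Plaur (0.66 to 0.94) and Serpinf1 (-1.51 to -0.94) between the knockdowns, Plat in si mH2A1.2 (0.55 to 0.91) and Serpinf1 in si mH2A1.1 (-0.82 to -0.25) against si Ctrl kept their direction. The number of members called then ranged from 0 to 1, 0 to 0 and 0 to 3 in the 3 contrasts, and of the wider list from 5 to 17, 1 to 10 and 18 to 27. With the stricter cutoffs on the edgeR values, Plau (0.81), Plaur (0.80), Serpinf1 (-1.11) and Plat (0.77) no longer passed. In edgeR, 0 members then did in si mH2A1.2 against si Ctrl and 0 between the knockdowns, and the wider list had 4, 0 and 14 calls. With only the samples of the contrast, Plat (0.78) did not pass in si mH2A1.2, leaving 0 members. The cause of these losses was not tested.

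The labels give the conditions the same replicate numbers and do not say what a number shares. Between samples that share a number, deviations from the group means had an r of 0.0841 to 0.331 over the 19545 tested genes, above 0.1 in 5 of 9 pairs, and of 0.113 to 0.501 over the 14378 genes of at least 1 CPM, above 0.1 in 9 of 9. Between different numbers r did not exceed 0.0363. Every pair that shares a number thus lay above every pair of different numbers. The first set was the one fitted, and not all of its pairs exceeded 0.1, a cutoff chosen for this check. The main fits left the numbers out because the study's methods state no pairing, not because the r values exclude one. In the count table, the column names of samples that share a number carry consecutive numerals. If a number does mark something that samples share, the edgeR p-values given without a block leave it out of account. With the replicate block, Plau passed in si mH2A1.1 against si Ctrl (0.45, edgeR adjusted p = 0.0212), Plat did not in si mH2A1.2 (0.76, edgeR adjusted p = 0.0556) and Serpine2 in si mH2A1.1 against si Ctrl was at 0.0057, so that 1 and 0 members passed against si Ctrl. The 3 calls between the knockdowns held, and the wider list had 23 and 14 calls against si Ctrl.

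Levels in si Ctrl in TPM were 307 for Serpinf1, 221 for Plau, 46.3 for Plat, 27.1 for Plaur and 13.3 for Serpine2. Scaled to all annotated exons, an alternative chosen after seeing the data, they were 111, 102, 8.78, 7.26 and 1.65 RPKM. The order was the same. At these depths 3 counts correspond to at most 0.0812 CPM, for counting error only.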

Other observations

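Sample number 3 held the lowest level of Plau, Plaur and Serpine2 in each of the 3 conditions. Plau was highest in sample number 1 of each condition, with 291, 358 and 235 CPM. The numbers are names from the labels and have no order.

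The summed RPKM of both activators was 142, 124 and 108 in si Ctrl, 178, 166 and 153 in si mH2A1.1 and 148, 108 and 91.7 in si mH2A1.2. Every si mH2A1.1 sample was above every other sample, and si Ctrl and si mH2A1.2 overlapped. The sum was formed after the values were seen and was not tested.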
